A study of Caenorhabditis elegans with 2 samples.

Results

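The genes that encode the proteins of the cytosolic ribosome were examined in a map of where a tagged tag-97 protein sits on chromatin in whole Caenorhabditis elegans. Members were all protein-coding genes of the WBcel235 gene models whose names begin with rpl- (large subunit), rps- (small subunit) or rla- (acidic stalk proteins, counted here with the large subunit). There were 81 of them among 19973 protein-coding genes on the nuclear chromosomes: 50 large subunit genes, 3 of which are rla- genes, and 31 small subunit genes. A small nucleolar RNA (snoRNA) gene lay inside 13 of the 81, always on the same strand.

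Chromatin immunoprecipitation and sequencing were done with an antibody against GFP on 1 group of animals, in 2 biological replicates. All animals were of strain OP719, which carries the transgene wgIs719 (tag-97 fused to TY1, EGFP and 3xFLAG tags, with an unc-119(+) rescue marker) in an unc-119(tm4063) background. They were L4 larvae of 66 hours, synchronised by starving hatchlings obtained by bleaching, and the chromatin was sonicated to between 200 and 800 bp. According to the labels the insertion aims at svh-5. They give no sex and do not say which cells made the fusion protein. No control immunoprecipitation was used here.

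A ribosome consists of a small subunit, which reads the messenger RNA, and a large subunit, which joins amino acids. Each contains ribosomal RNA and many different proteins that are needed in near equal amounts, and growing animals transcribe the genes for these proteins strongly. Many snoRNAs, which guide chemical modification of ribosomal RNA, are encoded in introns of ribosomal protein genes.

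The authors deposited ranked lists of all candidate regions and shorter lists of those that passed their reproducibility threshold, for each replicate and for both replicates together (the joint list). The ranked joint list held 118176 regions and the thresholded joint list 321, while the replicates' own thresholded lists held 70 (replicate 1) and 71 (replicate 2) regions. Each region carries a signal that the authors took from their peak calls. Its scale is not stated, and it is not scaled between lists. A region was given to a gene when its summit fell in a window from 1000 bp before to 200 bp after the annotated 5′ end, and the gene's value is the highest signal among its ranked regions. The same was done in each replicate, so a replicate's value can come from another place in the window than the joint one. Genes with a region of the thresholded list in this window are called listed. Without read counts the depth behind these values is unknown.

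Sequences under the listed regions of these genes are shown first, as 151 bp centred on the summit, read 5′ to 3′ on the gene's own strand from the RefSeq copy of the WBcel235 (ce11) genome. They are from 8 of the 10 listed members, and those of rps-26 and rla-1 are not shown. Capitals mark 3 words of 6 bases on either strand: GGCCTA (on the other strand TAGGCC), then TACGGT (on the other strand ACCGTA), and GTGTAT (on the other strand ATACAC). The last 2 words were chosen after these sequences had been read, and GGCCTA was taken from an earlier account of these data. The presence of all 3 words here is a description and no support.
rpl-3 (chrIII:3867493-3867643, plus strand): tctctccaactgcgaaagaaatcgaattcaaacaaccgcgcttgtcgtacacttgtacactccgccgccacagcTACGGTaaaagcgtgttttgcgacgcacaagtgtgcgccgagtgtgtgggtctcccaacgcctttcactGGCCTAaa
rpl-20 (chrIV:4749992-4750142, minus strand): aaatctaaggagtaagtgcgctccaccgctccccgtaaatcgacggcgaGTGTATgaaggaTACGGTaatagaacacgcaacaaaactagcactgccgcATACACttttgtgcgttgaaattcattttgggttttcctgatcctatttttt
rpl-35 (chrIII:7854612-7854762, plus strand): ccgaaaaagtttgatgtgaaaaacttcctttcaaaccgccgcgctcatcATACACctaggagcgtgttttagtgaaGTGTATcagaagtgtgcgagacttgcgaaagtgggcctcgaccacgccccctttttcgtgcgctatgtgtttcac
rpl-15 (chrIV:654825-654975, minus strand): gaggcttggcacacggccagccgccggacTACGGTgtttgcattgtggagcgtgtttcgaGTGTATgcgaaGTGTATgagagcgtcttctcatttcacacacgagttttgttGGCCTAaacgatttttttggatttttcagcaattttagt
rpl-43 (chrII:14154434-14154584, plus strand): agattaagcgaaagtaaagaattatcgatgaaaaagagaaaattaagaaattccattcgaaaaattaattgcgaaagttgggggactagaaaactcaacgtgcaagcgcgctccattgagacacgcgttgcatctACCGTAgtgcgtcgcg
rpl-7A (chrIV:4390596-4390746, minus strand): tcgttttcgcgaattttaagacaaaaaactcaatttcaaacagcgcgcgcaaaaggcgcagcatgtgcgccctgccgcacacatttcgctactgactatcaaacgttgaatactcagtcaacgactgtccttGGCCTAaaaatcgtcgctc
rps-24 (chrIV:385493-385643, plus strand): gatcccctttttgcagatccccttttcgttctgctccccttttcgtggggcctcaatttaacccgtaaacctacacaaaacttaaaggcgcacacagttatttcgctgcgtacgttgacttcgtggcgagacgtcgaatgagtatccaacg
rps-23 (chrIV:12391242-12391392, minus strand): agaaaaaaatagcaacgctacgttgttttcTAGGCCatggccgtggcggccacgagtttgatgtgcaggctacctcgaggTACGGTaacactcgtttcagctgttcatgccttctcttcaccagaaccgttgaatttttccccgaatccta

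The windows of rpl-3 and rpl-15 each held both GGCCTA and TACGGT, with TACGGT upstream of GGCCTA on the gene's strand, and that of rps-23 held both with GGCCTA on the other strand. The window of rps-24 held none of the 3 words. For contrast, the following are the summits of 2 members with high signal that were not listed and of rpl-21, the member with the lowest signal.
rpl-11.2 (chrX:2242934-2243084, minus strand): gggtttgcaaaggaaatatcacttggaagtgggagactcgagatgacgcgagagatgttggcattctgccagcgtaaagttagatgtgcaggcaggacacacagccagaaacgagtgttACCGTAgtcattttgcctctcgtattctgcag
rps-1 (chrIII:4475573-4475723, plus strand): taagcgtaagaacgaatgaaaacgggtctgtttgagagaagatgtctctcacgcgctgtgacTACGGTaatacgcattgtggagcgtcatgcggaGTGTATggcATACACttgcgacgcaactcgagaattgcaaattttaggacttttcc
rpl-21 (chrIII:8130530-8130680, minus strand): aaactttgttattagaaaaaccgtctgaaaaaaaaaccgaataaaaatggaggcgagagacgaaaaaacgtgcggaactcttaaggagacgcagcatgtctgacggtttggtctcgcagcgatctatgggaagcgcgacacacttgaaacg

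Ribosomal protein genes had a higher median signal than other protein-coding genes, and a small set of them stood far above the rest. A ranked region was present at 73 of 81 ribosomal protein genes (90.1%), against 16035 of 19892 other protein-coding genes (80.6%). The median of the highest joint signal was 29.2 at ribosomal protein genes (quartiles 21.7 to 46.1) and 23.4 at other protein-coding genes (16.9 to 30.8). In replicate 1 the medians were 15.4 over 59 ribosomal protein genes and 13.9 over 10498 others. In replicate 2 they were 19.98 over 58 ribosomal protein genes and 15.9 over 11458 others. The difference had the same direction in both replicates, and in each the quartile ranges of the gene groups overlapped. With 1 group of 2 replicates, and genes that are not replicates of each other, no test was made. Whole animals were used, so a protein bound in more cells cannot be told apart from one bound more strongly in some of them.

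Listed genes numbered 10 of 81 ribosomal protein genes (12.3%), against 141 of 19892 other protein-coding genes (0.709%). Over all protein-coding genes the share was 0.756%. The regions of 6 of the 10 also lay in windows of other protein-coding genes, so those neighbours are among the 141. In the conservative list, which ranks the replicates against each other, 8 of 81 members had a region, against a share of 0.461% of all protein-coding genes. The thresholded list of replicate 1 had 5 of 81, with 0.195% of all protein-coding genes, and that of replicate 2 had 5 of 81, with 0.18% of all protein-coding genes. Relaxing the joint threshold to an irreproducible discovery rate (IDR, the expected share of regions that do not hold their rank between inputs) of 0.05 gave 13 of 81, with 1.68% of all protein-coding genes. Tightening it to 0.001 gave 5 of 81, with 0.185%.

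Members were most frequent in the upper tail. Among all protein-coding genes with a ranked region, ribosomal protein genes supplied 11 of their 73 to the top 1%, 20 to the top 5% and 26 to the top 10%, and 50 of 73 (68.5%) were in the upper 50%. At the other end, 7 of 73 (9.59%) fell in the lowest 10%, and all 7 were large subunit genes. The lowest 10% of the replicates also held small subunit genes, 1 of 26 ranked in replicate 1 and 2 of 25 in replicate 2. In replicate 1, 12 of 59 members (20.3%) were in the top 5% of protein-coding genes, and in replicate 2, 16 of 58 (27.6%). In both replicates at once, 8 of 81 ribosomal protein genes (9.88%) reached the top 5%, against 131 of 19892 other protein-coding genes (0.659%).

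**Figure D1:**
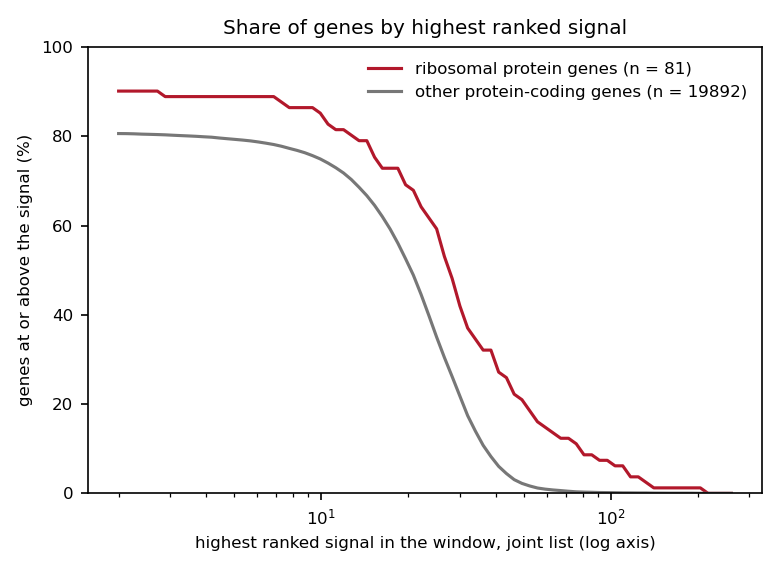
Percentage of genes (vertical axis) whose highest ranked signal in the joint list is at or above the value on the horizontal log axis, for 81 ribosomal protein genes and 19892 other protein-coding genes, with genes without a ranked region counted in the denominator. The curve of the ribosomal protein genes keeps a long upper tail that ends at 216.

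Among large subunit genes, rpl-3 had the highest value. Its protein reaches towards the site where peptide bonds form. The joint signal was 216, while replicate 1 gave 115.1 and replicate 2 gave 99.7, and the region ranked 4th of the 321 by signal. The summit lay 286 bp upstream of the 5′ end at chrIII:3867497-3867616 between genes, no other gene's window held it, and rpl-3 (WBGene00004414) was in the thresholded list of both replicates.

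At rpl-20 the joint signal was 135, with 64.7 in replicate 1 and 64.9 in replicate 2. The summit lay 289 bp upstream of rpl-20 but only 173 bp upstream of the neighbouring gene Y17G9B.5, so the region cannot be assigned to 1 of the genes. The joint signal of rpl-35, whose protein lies by the tunnel through which the new chain leaves, was 130, with 80.8 in replicate 1 and 43.8 in replicate 2. Its summit was 447 bp upstream and in no other gene's window. The region of rpl-20 was in the thresholded list of replicate 2 alone and that of rpl-35 in the list of replicate 1 alone.

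The region of rpl-15, 324 bp upstream, had a joint signal of 111.9, with 61.1 in replicate 1 and 48.2 in replicate 2. Inside rpl-15 lie the snoRNA genes K11H12.12 and K11H12.13, whose 5′ ends were 870 and 539 bp from the same summit. For rpl-43 the joint signal was 77.9, with 35.1 in replicate 1 and 44.8 in replicate 2. Its summit was 785 bp upstream of rpl-43, the farthest of the listed members, and 136 bp upstream of Y48B6A.1. The joint signal of rpl-7A was 65.3, with 39.5 in replicate 1 and 34.2 in replicate 2. That summit was 81 bp upstream, the region aligned to 3 places in the genome, and it was in the conservative list but in neither replicate's own list.

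The acidic proteins of the ribosomal stalk, which recruit elongation factors, differed from each other. At rla-1 the joint region had a signal of 76.7 with its summit 182 bp downstream of the 5′ end, in a coding exon, the only listed member with a summit inside the gene. Ranked regions of the replicates that overlapped it had signals of 24.14 in replicate 1 and 35.4 in replicate 2. The highest replicate regions with a summit inside the window were others, with 25.5 in replicate 1 and 8.37 in replicate 2, and they lay 675 and 804 bp from the joint summit. It was listed in neither replicate and not in the conservative list. The gene for the stalk's base protein, rla-0, had a joint signal of 25.4, and no ranked region of either replicate overlapped that joint region. The replicates' highest regions in the window of rla-0 had 9.69 in replicate 1 and 11.8 in replicate 2, and lay 969 and 1087 bp from the joint summit, while rla-2 had no ranked region in its window.

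Of the small subunit genes, 3 were listed. The joint signal of rps-24 was 111.8, with 64.6 in replicate 1 and 51.1 in replicate 2, and both replicates listed it. Its summit was 319 bp upstream, and the region aligned to 47 places in the genome. Whether reads were shared among those places was not tested. At rps-23, whose protein sits where codons are read, the joint signal was 99.2, with 62.6 in replicate 1 and 37.7 in replicate 2. The summit was 264 bp upstream of rps-23 and 270 bp upstream of dpm-3, which starts on the other side of it.

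The replicates were farthest apart among listed members at rps-26. The joint signal there was 86.5, with 11.5 in replicate 1 and 64.1 in replicate 2, and only replicate 2 listed it. Its summit was 448 bp upstream of rps-26 but 9 bp upstream of tmem-107 and 70 bp upstream of the snoRNA gene F39B2.14. The conservative list did not include it.

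Over the 10 listed members, 7 had their own 5′ end as the nearest protein-coding one, 6 shared the region with the window of another protein-coding gene and 4 with that of a snoRNA gene. None shared it with a tRNA gene. Of the 63 members that were ranked only, 42 (66.7%) had their own 5′ end nearest. In that group 32 (50.8%) shared the region with another protein-coding gene and 9 (14.3%) with a snoRNA gene. Ranked regions of both replicates overlapped the joint region at 10 of 10 listed members, against 33 of the 63 that were ranked only. The listing rests on the same reads as these overlaps, so the counts describe the list.

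**Figure D2:**
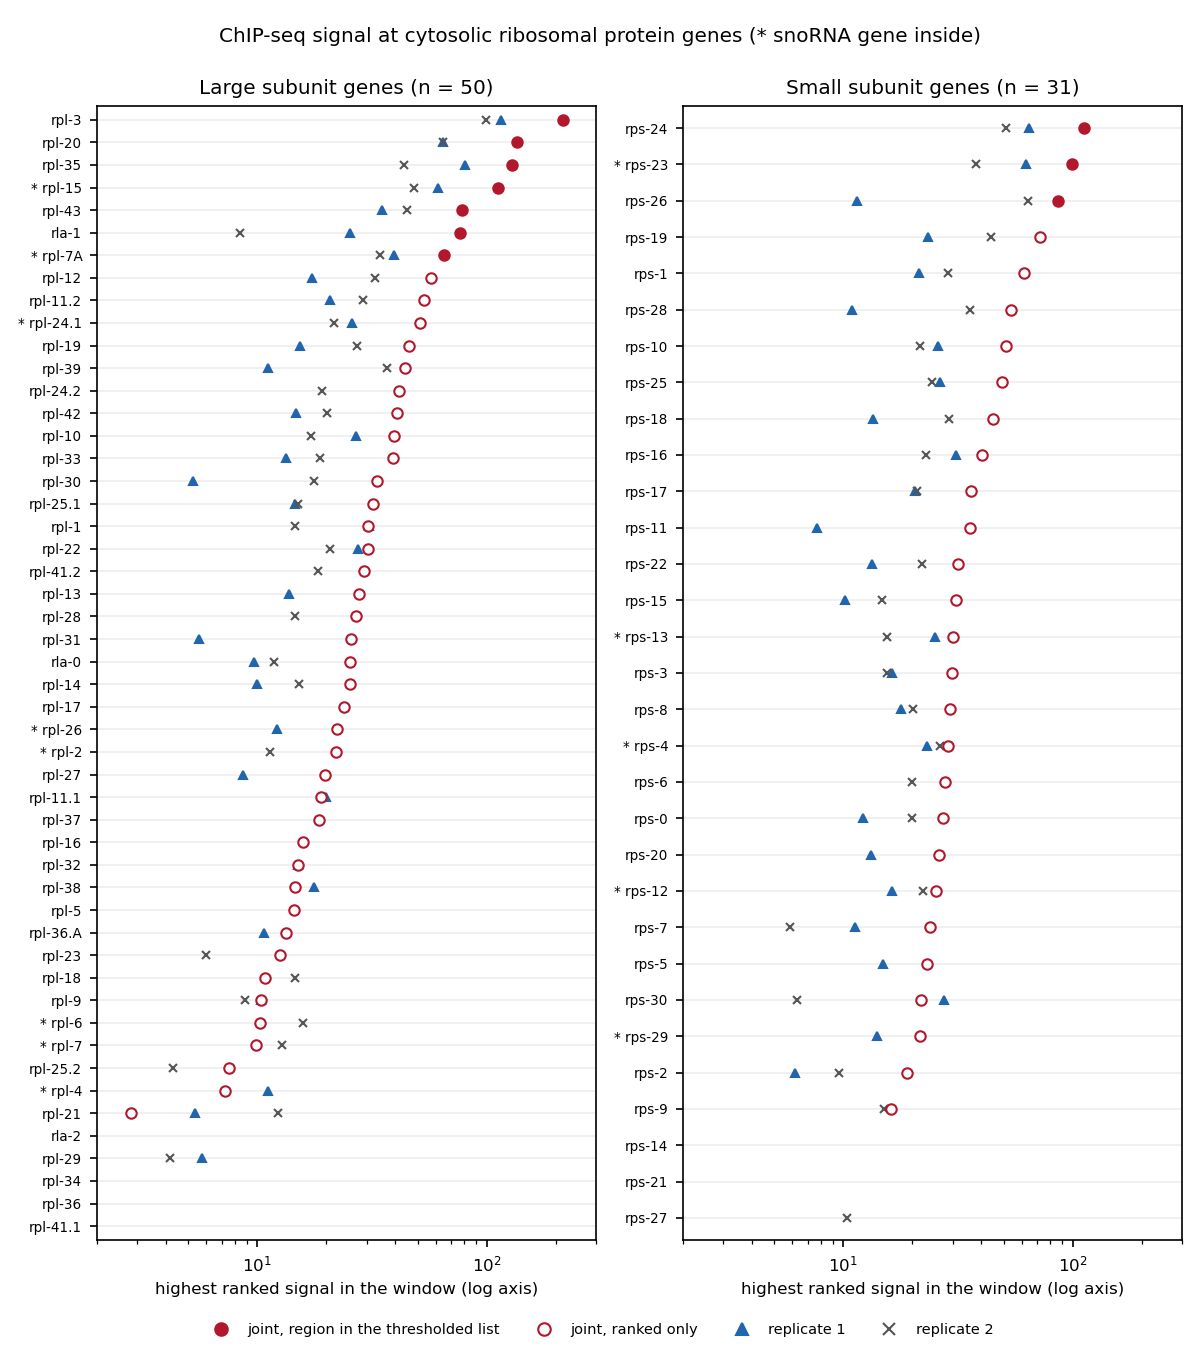
Highest ranked signal (log axis, authors' unit) of each ribosomal protein gene in the joint list, replicate 1 and replicate 2, with large subunit genes in the left panel and small subunit genes in the right one, ordered by joint signal. Filled circles are the 10 listed members, led by rpl-3 at 216 and rps-24 at 111.8, and an asterisk marks the 13 genes with a snoRNA gene inside.

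Just below the listed genes came a run of members whose regions were ranked high but not listed. At rps-19, the worm counterpart of a gene mutated in human Diamond-Blackfan anaemia, the joint signal was 72.2, with 23.5 in replicate 1 and 44.1 in replicate 2. This was above the 65.3 of the listed rpl-7A, but the IDR was 0.0306 at rps-19 and 0.00587 at rpl-7A. The summit lay 273 bp upstream of rps-19 and 172 bp upstream of hsr-9. The joint signal of rps-1 was 61.1, with 21.4 in replicate 1 and 28.6 in replicate 2 and an IDR of 0.0125.

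The stalk-base gene rpl-12 had a joint signal of 57.1 (17.3 in replicate 1, 32.6 in replicate 2), from a summit 96 bp downstream of its 5′ end and 489 bp upstream of lin-54. At rps-28 the joint signal was 53.8, with 8.77 in replicate 1 and 35.7 in replicate 2 over the joint region. For rpl-11.2, whose protein helps bring a small ribosomal RNA into the large subunit, it was 53.5 (20.8 in replicate 1, 28.9 in replicate 2). Replicate 2 was the higher one at each of these 5 unlisted genes.

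The divergent genes rpl-24.1 and rps-10, whose 5′ ends are 610 bp apart, shared 1 region with a joint signal of 51.2, and 26.0 in replicate 1 and 21.7 in replicate 2. Its summit was 54 bp inside rpl-24.1, in a coding exon. At rps-25 the joint signal was 49.1, with 26.5 in replicate 1 and 24.4 in replicate 2. The remaining members of the highest 20 were rpl-19 with 46.1 (15.4 in replicate 1, 27.2 in replicate 2) and rps-18 with 45.1. Over the joint region of rps-18 the signals were 25.7 in replicate 1 and 28.8 in replicate 2, and the highest replicate 1 region in its window, with 13.5, lay 919 bp from the joint summit. All 20 were in the top 5% of protein-coding genes.

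Among members with a ranked joint region, large subunit genes alone stood at the low end. In each replicate's own lowest 10% there were small subunit genes too. The 5 lowest were rpl-21 at 2.83, rpl-4 at 7.27, rpl-25.2 at 7.54, rpl-7 at 9.88 and rpl-6 at 10.3. For rpl-21 the replicates' own highest values were 5.37 in replicate 1 and 12.3 in replicate 2. The replicate 1 value came from a summit 417 bp from the joint one, and over the joint region replicate 1 had 2.19. The protein of rpl-4, like that of rpl-35, lies along the exit tunnel, yet the joint signals of these genes were 7.27 and 130. Among the 5 lowest, the summits of rpl-4 (827 bp upstream), rpl-25.2 (942 bp) and rpl-6 (792 bp) lay in exons of B0041.8, C34B7.1 and dpy-31. That of rpl-21 was between genes, 378 bp upstream of rpl-21 and 247 bp upstream of C14B9.10, and that of rpl-7 was inside rpl-7. The 48 ranked members between the 20 highest and the 5 lowest ran from 44.0 (rpl-39) down to 10.4 (rpl-9).

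No ranked joint region had its summit in the window of 8 members. These were the large subunit genes rla-2, rpl-29, rpl-34, rpl-36 and rpl-41.1 and the small subunit genes rps-14, rps-21 and rps-27. In all 8 the nearest ranked summit lay downstream of the window, from 202 bp (rpl-41.1) to 1497 bp (rla-2) past the 5′ end. As the empty window reaches 1000 bp upstream but 200 bp downstream, a summit within 1000 bp could lie only downstream. Nothing is read from the side. Replicate 1 had a region of 5.77 and replicate 2 one of 4.15 at rpl-29, and replicate 2 one of 10.4 at rps-27. The other 6 had no ranked region in the window in either replicate.

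Values of large and small subunit genes overlapped widely. Listed genes were 7 of 50 large subunit genes (14.0%) and 3 of 31 small subunit genes (9.68%), a difference of 4.32 percentage points. The direction was the opposite in each replicate's own list, where 3 of 50 and 2 of 31 were listed (6% and 6.45%), a difference of -0.452 points. At an IDR of up to 0.05 it was -5.35 points. Median joint signals were 26.9 for 45 large subunit genes and 30.6 for 28 small subunit genes. Large subunit genes spanned the wider range, 2.83 to 216, against 16.1 to 112 for small subunit genes, so that the small subunit range lay inside that of the large. The lower median of large subunit genes was also found in replicate 1 (15.03 against 16.3) and replicate 2 (17.8 against 21.7).

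A snoRNA gene inside went with no steady difference in signal. Listed genes were 3 of 13 with a snoRNA inside (23.1%: rpl-15, rps-23 and rpl-7A) and 7 of 68 without (10.3%). Replicate 1 listed 2 of 13 and 3 of 68, whereas replicate 2 listed 0 of 13 and 5 of 68. The joint medians were 25.4 with a snoRNA inside and 30.1 without. In the replicates the order of the medians was reversed, with 24.07 against 14.9 in replicate 1 and 21.9 against 19.6 in replicate 2. Among other protein-coding genes, 4 of 179 with a snoRNA inside (2.23%) were listed, and 137 of 19713 without (0.695%).

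The 13 genes with a snoRNA inside spread over nearly the whole range. Besides rpl-15, rps-23 and rpl-7A, rpl-24.1 was high at 51.2. Then came rps-13 at 30.0, rps-4 at 28.6, rps-12 at 25.4, rpl-26 at 22.3, rpl-2 at 22.1 and rps-29 at 21.7. The genes rpl-6, rpl-7 and rpl-4 were among the 5 lowest members. All 13 had a ranked joint region, against 60 of the 68 members without a snoRNA inside (88.2%).

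The replicates could be set beside each other at 46 members with a ranked region in both. A further 13 had one in replicate 1 only, 12 in replicate 2 only and 10 in neither. Spearman's rho between the replicates' signals was 0.530 over the 46 members and 0.211 over 7141 other protein-coding genes, as a description across genes that share the same pair of libraries. A joint region was also present at 45 of the 46, and both replicates' summits were within 150 bp of the joint summit at 27 of these 45. Among the 10 listed members this held for 9, the exception being rla-1. The highest signals differed by more than 2-fold at 9 of the 46, but 6 of those 9 had a replicate summit farther than 150 bp from the joint one. Over the joint region itself, signals of both replicates were present at 43 members and differed by more than 2-fold at 9, of which rps-26 was the only listed one.

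**Figure D3:**
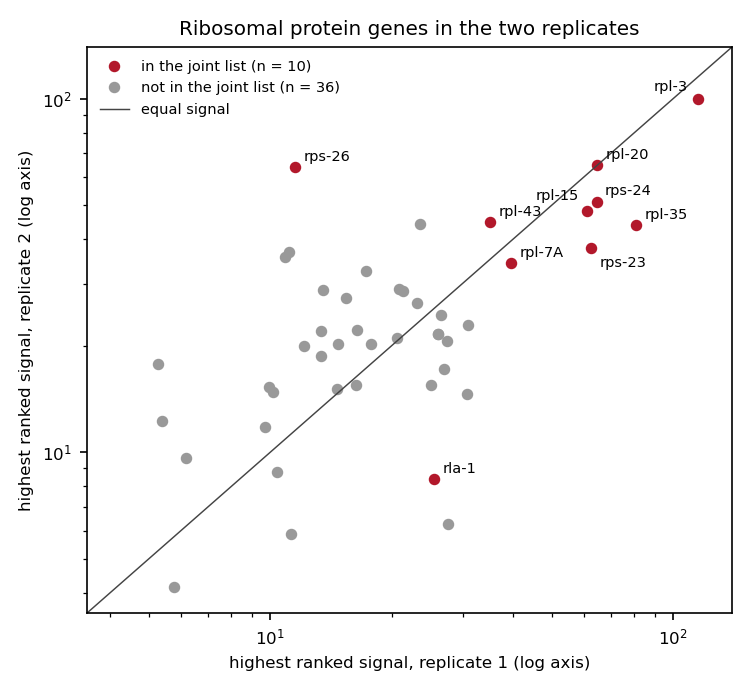
Highest ranked signal of the 46 ribosomal protein genes with a region in both replicates, replicate 1 on the horizontal and replicate 2 on the vertical log axis, with the line of equal signal. Of the 10 listed members, rpl-3 is highest in both (115.1 and 99.7), while rps-26 (11.5 and 64.1) and rla-1 (25.5 and 8.37) lie far from the line, the values of rla-1 being from different places in its window.

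Most listed members had their summit in the same interval upstream of the 5′ end. Of the 10, 7 lay 251 to 500 bp upstream, against 28 of 141 at other listed protein-coding genes (19.9%). Of the 141, 59 (41.8%) lay 1 to 250 bp upstream. The 141 include neighbours whose windows hold the regions of 6 listed members, so a region can be counted on both sides. At rpl-20 and rps-26, among the 7, another gene's 5′ end was nearer to the summit. The median position was -304 bp at listed ribosomal protein genes and -270 bp at other listed genes. Of the 20 members in the top 5%, 10 lay in the same interval, the same 7 listed members among them. In the lower 50% it was 3 of the 23 members. Over all ranked members it was 19 of 73 (26.0%), against 3342 of 16035 other genes (20.8%). Of the listed members' summits 9 were between genes and 1 in a coding exon, whereas 22 of the 63 of members that were ranked only were between genes and 27 in a coding exon.

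**Figure D4:**
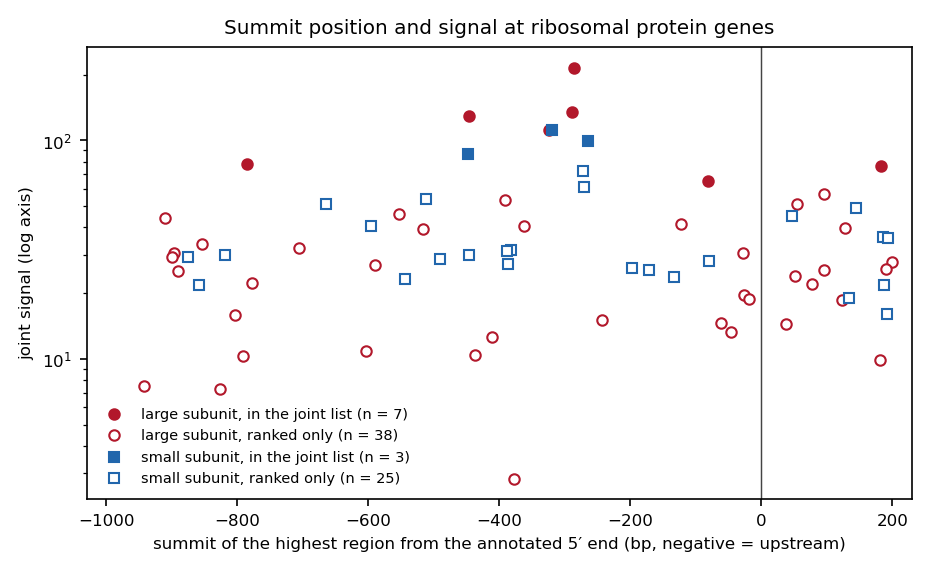
Position of the summit of the highest region relative to the annotated 5′ end in bp (horizontal, negative is upstream) and joint signal (vertical log axis) for the 73 ribosomal protein genes with a ranked region, by subunit. Of the 10 listed genes (filled), 7 lie 251 to 500 bp upstream and rla-1 alone lies inside the gene.

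Words of 6 bases were counted on either strand. The words GGCCTA and CTAGGC came from an earlier account of these data. In the 500 bp upstream of the 5′ end, GGCCTA was in 33 of 81 ribosomal protein genes (40.7%), against 1497 of 19892 other protein-coding genes (7.53%), and in 7.66% of all protein-coding genes. Large and small subunit genes held it alike, 20 of 50 and 13 of 31. The ratio of the ribosomal share to that of the other genes, 5.41, was the highest of the 1118 words found in at least 10 members. By difference in share GGCCTA ranked 4th of 2080 words, and the first was CCTAAA, which overlaps it in CCTA, at 60.5% against 21.2%. The median position of GGCCTA was 255 bp upstream.

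TACGGT was in 36 of 81 ribosomal protein genes (44.4%), against 2749 of 19892 others (13.8%), with a median position of 289 bp upstream. It ranked 7th by difference in share and 15th by ratio, and had been picked after sequences of listed members were read. The other words searched showed smaller differences. CTAGGC, which overlaps the reverse complement of GGCCTA in TAGGC, was in 5 of 81 (6.17%) against 7.69%, and TATAAA was in 54.3% against 54.0%. CTTTTC was in 63.0% against 53.6% and GTGTAT in 12.3% against 17.5%. Base composition of these upstream sequences was the same, with a median GC content of 33.8% in both groups.

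Members with and without GGCCTA upstream had nearly equal medians. The median joint signal was 29.8 at ribosomal protein genes with the word and 29.2 at those without. For other protein-coding genes the medians were 24.9 and 23.3. The word was in 6 of the 10 listed members and in 27 of the 71 that were not listed (38.0%). TACGGT upstream was in 4 of the 10 and 32 of the 71 (45.1%). CTAGGC upstream was in 3 of the 10 and 2 of the 71 (2.82%).

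Around the summit the medians were farther apart. In the 151 bp centred on it GGCCTA was in 11 of 73 ribosomal protein genes (15.1%), against 490 of 16035 others (3.06%), and in 3.11% of all such summits. At listed members it was in 5 of 10, against 24 of 141 at other listed protein-coding genes (17.0%), and at members that were ranked only in 6 of 63 (9.52%). The 141 include neighbours whose windows hold the regions of 6 listed members, so a summit can be counted on both sides. Members with GGCCTA at the summit had a median joint signal of 51.2, and those without 28.2. CTAGGC was at the summit of 2 of 10 listed members, 0 of 63 that were ranked only and 24 of 141 other listed genes (17.0%). As GGCCTA and CTAGGC came from an earlier account of these data, their counts and medians are a description and no independent support. TACGGT was at the summit of 5 of 10 listed members and of 3 of 63 members that were ranked only, among them rps-1 and rpl-11.2 shown above. Since this word was chosen from the summit sequences of 8 of those 10, its count there is fixed in part by the choice and nothing is read from it. GGCCTA and TACGGT also lie mostly near the positions given above for listed summits, and the part of position in these differences was not tested. GC content around the summit was 43.7% at ribosomal protein genes and 37.7% at others, and 48.0% at listed members and 45.7% at other listed genes.

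Genes named as pairs differed in joint signal, but the replicates did not always show it. The joint signal was 53.5 at rpl-11.2 and 18.9 at rpl-11.1, 51.2 at rpl-24.1 and 41.6 at rpl-24.2, and 32.1 at rpl-25.1 and 7.54 at rpl-25.2. Replicate 1 gave 20.8 at rpl-11.2 and 19.9 at rpl-11.1, which had no region in replicate 2. Neither rpl-24.2 nor rpl-25.2 had a region in replicate 1. The joint summits of rpl-25.1 (706 bp upstream) and rpl-25.2 (942 bp upstream) lay in exons of glit-1 and C34B7.1. At rpl-41.2 the joint signal was 29.2, while rpl-41.1 had no ranked region in its window. The summit of the rpl-41.2 region lay 900 bp upstream of rpl-41.2, in a coding exon of rpl-41.1. It was 202 bp past the 5′ end of rpl-41.1, just outside that gene's window, and the region aligned to 3 places in the genome. This contrast therefore rests on the window's edge. Of the divergent pairs besides rpl-24.1 and rps-10, rpl-39 and rps-30 start 499 bp apart and had 44.0 and 21.8 from separate regions. The summit of rpl-39 lay in a coding exon of rps-30, and that of rps-30 in an exon of grl-10. The pair rpl-36 and rps-14, 663 bp apart, had no ranked joint region in either window.

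By chromosome, 5 of the 10 listed members lay on chromosome IV, which holds 18 of the 81. The median joint signal of the 15 members ranked there was 49.1, against 22.9 at other protein-coding genes of that chromosome, of which 8 of 3263 were listed (0.245%). This was the lowest such share of the 6 chromosomes. The 8 include Y17G9B.5, K11H12.8, dpm-3 and set-21. Their windows hold the regions of rpl-20, rpl-15, rps-23 and rpl-7A, so these regions are counted on both sides. Chromosome I had 2 of 25 members listed, against 0.666% of its other protein-coding genes, with a median signal of 28.6. On chromosome II it was 1 of 10 members, against 0.872% of other genes, and on chromosome III 2 of 18, against 1.11%. Chromosome V had 0 of 8 members listed, against 0.501% of other genes, and chromosome X 0 of 2, against 1.10%.

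Other lists of protein synthesis genes held 0 or 1 listed gene each, beside the 0.756% of all protein-coding genes. Mitochondrial ribosomal protein genes, which serve the ribosome of the mitochondrion, had 1 of 69 listed (1.45%: mrps-28, joint 57.5, no region in replicate 1 and 15.3 in replicate 2) and a median of 22.98. Translation initiation factor genes had 1 of 34 listed (2.94%), iff-2, whose joint signal was 89.8 (52.0 in replicate 1, 31.9 in replicate 2), and a median of 29.4 like that of the ribosomal protein genes. Ribosome biogenesis genes had 1 of 35 listed (2.86%), pro-1, whose joint signal was 84.2 (32.6 in replicate 1, 61.5 in replicate 2), and a median of 26.7.

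No gene was listed among 8 elongation and termination factor genes (median 25.03, highest eef-1A.2 at 57.5), 10 genes for subunits of RNA polymerases I and III (24.07, rpoa-49 at 43.02) or 31 aminoacyl-tRNA synthetase genes (22.0, ears-1 at 46.0). Lists this short hold few genes at a share of 0.756%, so nothing is read from a count of 0, and the differences between the lists were not tested.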

How the data were processed

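Per the labels, immunoprecipitated DNA of 2 biological replicates of 1 group was sequenced. The authors deposited 8 region lists on ce11, 4 ranked and 4 thresholded, of which the joint lists gave the main values. The region signal was deposited by the authors on an unstated scale, and the ranked lists' −log10 of the global IDR, also deposited, was turned back into an IDR here. The deposited score column was not needed. Neither the peak caller nor the aligner is given in the sources used here, and replicate depths are unknown.

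Members, gene lists, windows and the first words searched were chosen with earlier results of these data known. Genes came from Ensembl gene models of WBcel235 and sequences from RefSeq; coordinates are 1-based. Places in the genome were counted with blastn 2.17.0 (at least 100 bp and 80% identity), so shorter matches were not counted. Other steps used Python 3.11.15, NumPy 2.4.6, pandas 2.3.3, SciPy 1.17.1 and matplotlib 3.10.9. The assignment of regions to windows was tested on simulated regions.

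Named were all listed members, the 20 highest and 5 lowest by joint signal, those without a ranked region, those with a snoRNA inside, all rla- genes and, in other lists, listed genes and the highest. Gene copies and divergent pairs were named after their values had been seen. Alternatives were other lists, IDR thresholds, windows and 5′ ends, single-place regions, the nearest region, and leaving out snoRNA genes or a replicate.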

Additional observations from a re-analysis of the deposited data

How the results depend on the processing

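The count of 10 listed members of 81 became 5 in either replicate alone and 5 at an IDR of at most 0.001. Without genes that have a snoRNA inside or in the window, 5 of the 65 members left were listed, against 135 of 19615 other genes (0.688%). The share of large minus small subunit genes (4.32 points) was -0.452 in either replicate alone and -5.35 at an IDR of at most 0.05. It was 0.323 with the window cut to 500 bp before and 100 bp after the 5′ end, 4.77 at an IDR of at most 0.001, 5.55 in the conservative list and with single-place regions, and 5.59 without snoRNA genes. The share with minus without a snoRNA inside (12.8 points) was -7.35 in replicate 2 alone and 11.0 in replicate 1 alone. The median of ribosomal minus other genes (5.87) was 1.51 in replicate 1 alone and 4.06 in replicate 2 alone. That of large minus small subunit genes (-3.67) was -3.89 in replicate 2 alone, -1.31 in replicate 1 alone, -1.35 where any overlap with the window counted and -5.89 for the region nearest the 5′ end. That of genes with minus without a snoRNA inside (-4.67) was 2.33 in replicate 2 alone, 9.18 in replicate 1 alone, 3.83 in the narrower window and 0.0381 for the nearest region. The cause was not tested. The other 33 alternative values kept their direction, but some were much smaller. The share with minus without a snoRNA inside was 1.81 at an IDR of at most 0.001 and 6.56 with single-place regions, and the difference in medians between the same genes was -1.16 where any overlap counted. No paired analysis was possible because the study has 1 group. Depth is unknown and windows can hold a neighbour's region.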

Other observations

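The genes ubq-2 and ubl-1 encode ribosomal proteins made as fusions with ubiquitin or a ubiquitin-like protein, and their names kept them out of the members. At ubq-2 the joint signal was 17.0, with 5.83 in replicate 1 and 15.5 in replicate 2, and the gene was not listed. At ubl-1 there was no ranked joint region in the window and no region in replicate 1, and replicate 2 had 17.2.

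The region of rpl-42, with a joint signal of 40.5, aligned to 361 places in the genome, the most of any member. Of the 73 members with a ranked region, 8 had one that aligned to more than 1 place. The replicates' values at rpl-42 were 14.8 in replicate 1 and 20.2 in replicate 2. The gene was named after its value had been seen.

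At rps-30 and rpl-39, which start 499 bp apart on opposite strands, the replicates were ordered oppositely. The joint summit of rpl-39 lay 910 bp upstream, in a coding exon of rps-30. That of rps-30 lay 858 bp upstream, in an exon of grl-10. The values at rps-30 were 27.6 in replicate 1 and 6.27 in replicate 2, and at rpl-39 11.16 in replicate 1 and 36.9 in replicate 2. These genes too were named after their values had been seen.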
